A study of Mus musculus with 17 samples.

Results

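The mitochondrial respiratory chain is built from proteins of 2 genomes, and the RNA of both was followed here in mouse embryonic stem (ES) cells before and 24 h after a forkhead transcription factor was switched on. The genes were taken by symbol from the protein-coding genes of the GENCODE M21 annotation: the Nd, Co, Atp and Cytb genes of the mitochondrial genome, the Nduf genes of complex I, Sdha to Sdhd of complex II, the Uqcr genes of complex III, Cox4 to Cox8 of complex IV and the Atp5 genes of complex V. This gave 98 of the 53693 genes in the deposited tables, 13 of them mitochondrially encoded and 85 nuclear encoded. Of the 98, 95 had enough counts to be tested, all 13 mitochondrial and 82 nuclear. The 3 others were Cox6a2, Cox8b and a second locus annotated as Atp5o, which had almost no counts in any library.

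The 5 lines, iFoxA1, iFoxC1, iFoxG1, iFoxL2 and iFoxP3, derive from MC1 ES cells of the 129S6/SvEvTac strain. Each carries at the Rosa26 locus the coding sequence of the factor it is named for, tagged at the C terminus with His6-FLAG, under control of a promoter that doxycycline (Dox) represses, together with puromycin resistance. The 0 h cells grew with Dox at 0.2 µg/ml and LIF, the cytokine that holds mouse ES cells undifferentiated, at 1000 U/ml, in medium containing 15% fetal bovine serum. The 24 h cells had been washed free of Dox and moved to a differentiation medium with 10% serum. Loss of Dox, the change of medium and the factor therefore came together in every line, every line carries a transgene, and their parts in a change cannot be told apart. At 0 h there were 2 libraries of iFoxA1 and 1 of each other line, and at 24 h 3 libraries of iFoxA1 and 2 of each other line, 17 in all. Whether replicates come from separate cultures is not given in the labels, so the spread behind each p-value may be technical.

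Library totals ran from 17664320 to 37174560 counts. One 24 h library of each line, the last one given for a line in every list of 24 h values below, held 32940042 counts or more, and the 12 others at most 22155274. None of the 5 deeper libraries was at 0 h. Changes are given as CPM, counts scaled to a common library total with TMM factors, which correct for library composition. Each factor was highest in its own line at 24 h, but 2 of the deeper libraries stood apart. Foxa1 was at 236, 252 and 76.7 CPM in the 24 h libraries of iFoxA1, and Foxl2 at 149 and 11.5 CPM in those of iFoxL2. Nanog, a gene of undifferentiated ES cells, was at 51.2, 49.97 and 297 CPM in the same iFoxA1 libraries and at 94.2 and 209 CPM in those of iFoxL2, against 579 to 1312 CPM at 0 h. In the 24 h libraries of iFoxC1, where Foxc1 was at 274 and 289 CPM, Nanog was likewise at 284 and 227 CPM. Nanog was at 95.6 and 79.1 CPM in those of iFoxG1 and at 107 and 88.2 CPM in those of iFoxP3. Results without the third iFoxA1 and the second iFoxL2 library at 24 h are given below for counts of genes and for some single genes. Calls of other genes also moved without these 2 libraries and are not listed gene by gene. The summed level of 9 ES cell markers, Pou5f1, Sox2 and Nanog among them, was 5436 to 6981 TPM (scaled to transcript length and library total) at 0 h and 3589 to 5917 TPM at 24 h. The largest part of this sum was Dppa5a, at 1682 to 3987 TPM over all libraries. Of the 9, 2 rose and 2 fell. Utf1 rose with a log2 change of 1.46 (edgeR adjusted p = 0.000398) and Lin28a with 0.52 (edgeR adjusted p = 0.000866). Nanog fell with -2.40 (edgeR adjusted p = 0.00123) and Zfp42 with -1.27 (edgeR adjusted p = 0.00649). Pou5f1 was at 881 to 1193 CPM at 0 h. In the third iFoxA1 and the second iFoxL2 library at 24 h Pou5f1 was at 1235.5 and 1560 CPM, against 711 to 1128 CPM in the other 24 h libraries.

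Complexes I and II pass electrons from NADH and succinate to ubiquinone, complex III hands them to cytochrome c, and complex IV, cytochrome c oxidase, gives them to oxygen. Complexes I, III and IV pump protons, and complex V, ATP synthase, uses the gradient to make ATP. The mitochondrial genome encodes core subunits of complexes I, III, IV and V and none of complex II, and its genes are transcribed together as long precursors and cut apart. The nuclear subunits are transcribed gene by gene in the nucleus and imported as proteins. ES cells are known for leaning on glycolysis, with mitochondria that change form and output as cells differentiate.

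Several sequences bear on how the counts can be read. The mitochondrial genes mt-Atp8 and mt-Atp6, for 2 subunits of the proton channel side of ATP synthase, overlap on the mitochondrial chromosome at chrM:7927-7969 (GRCm38, plus strand), so reads from these 43 bases belong to both genes. The start codon of mt-Atp6 and the stop codon of mt-Atp8 are in capitals.
mt-Atp8 and mt-Atp6 overlap: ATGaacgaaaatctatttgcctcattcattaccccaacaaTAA

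Much of the mitochondrial genome also exists as a near-identical insertion on chromosome 1, where GENCODE annotates the pieces as pseudogenes. Gm28438 at chr1:24612775-24613119 matches the 345 aligned bases of mt-Nd3, at chrM:9459-9806, except for T3C, counted from 1 at the 5′ end of the transcript. The base is in capitals in the first bases of both transcripts.
mt-Nd3: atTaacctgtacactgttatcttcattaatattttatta
Gm28438: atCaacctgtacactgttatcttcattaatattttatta

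A read that does not cover that base cannot be given to one of them by its sequence. In all, 38 of the 98 genes, 9 of them mitochondrial, had at least 1 copy elsewhere in the annotation at 95% identity or more over 100 bases or more, 63 copies in all. For these genes the count of the gene and its pseudogene copies together, called the joint count here, is given beside the deposited count of the gene. Copies annotated as protein-coding were not added, so a gene with only such copies has the same joint and deposited count. Joining was chosen after the data had been seen.

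For nuclear genes the promoters were taken from RefSeq (GRCm38.p6), 250 bases before to 50 after the start, for the 69 of 85 genes with an entry. The motifs searched on both strands were the palindrome bound by NRF1, which is the first run of capitals in the Atp5k promoter shown here, its core GCGCATG, the ETS motif CCGGAAG bound by GABPA, the YY1 motif AAGATGGCG and the TATA box TATAAA; the core lies within the palindrome. The NRF1 palindrome was in 6.85% of 73 member promoters and 0.971% of all 32851 promoters. Its core was in 17.8% against 3.91%, the ETS motif in 21.9% against 8.86%, the YY1 motif in 9.59% against 1.4%, and the TATA box in 11% against 13.6%. Shown are 3 genes that fell after induction and Cox6a1, which holds the same palindrome and ETS motif and did not pass on average, though it did with the deeper libraries as a term in the model. Matches, on either strand, are in capitals: the NRF1 palindrome and an ETS match in Atp5k (chr5:108434350-108434649, minus strand) and Cox6a1 (chr5:115348909-115349208, minus strand), the NRF1 core and an ETS match in Sdhb (chr4:140961021-140961320, plus strand), and an ETS match in Sdhd (chr9:50603800-50604099, minus strand).
Atp5k promoter: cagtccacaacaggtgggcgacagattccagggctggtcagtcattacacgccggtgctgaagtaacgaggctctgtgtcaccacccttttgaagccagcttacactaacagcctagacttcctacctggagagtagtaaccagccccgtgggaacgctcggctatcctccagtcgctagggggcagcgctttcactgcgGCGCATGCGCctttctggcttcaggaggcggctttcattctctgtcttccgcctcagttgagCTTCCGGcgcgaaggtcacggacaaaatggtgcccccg
Sdhb promoter: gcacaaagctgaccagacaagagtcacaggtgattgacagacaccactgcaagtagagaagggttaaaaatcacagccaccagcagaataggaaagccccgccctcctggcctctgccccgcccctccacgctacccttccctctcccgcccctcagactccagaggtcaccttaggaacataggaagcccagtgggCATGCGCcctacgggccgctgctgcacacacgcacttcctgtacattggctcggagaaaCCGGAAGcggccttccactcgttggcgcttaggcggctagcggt
Sdhd promoter: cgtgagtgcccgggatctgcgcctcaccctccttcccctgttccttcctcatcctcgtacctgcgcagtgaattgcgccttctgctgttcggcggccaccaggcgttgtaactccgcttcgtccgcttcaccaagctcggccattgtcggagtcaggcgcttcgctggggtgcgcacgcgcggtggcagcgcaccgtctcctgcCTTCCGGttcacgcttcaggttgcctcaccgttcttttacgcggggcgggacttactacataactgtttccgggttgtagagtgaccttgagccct
Cox6a1 promoter: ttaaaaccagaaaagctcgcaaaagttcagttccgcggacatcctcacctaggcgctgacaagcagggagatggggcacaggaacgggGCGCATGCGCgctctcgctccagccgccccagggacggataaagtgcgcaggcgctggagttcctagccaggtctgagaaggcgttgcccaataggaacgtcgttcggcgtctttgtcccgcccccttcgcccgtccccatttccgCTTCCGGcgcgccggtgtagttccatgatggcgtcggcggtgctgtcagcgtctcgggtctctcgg

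Of the 5 genes with the palindrome, Atp5g2, Atp5k, Cox6a1, Ndufa11 and Uqcrc1, only Atp5k fell on average on joint counts. With the deeper libraries as a term in the model 4 of the 5 fell: Atp5g2 (-0.38), Atp5k (-0.54), Cox6a1 (-0.55) and Ndufa11 (-0.38), as log2 changes. On joint counts 13 of the 16 genes with an ETS match fell, and 7 of the 13 with the NRF1 core. Of the 7 genes with a YY1 match 5 fell, and of the 7 with a TATA box 3. Of all 69 genes with a promoter 46 fell and 21 were tested and did not pass. With that term 14, 12, 7 and 4 of the genes with these 4 motifs fell, and 57 of all 69. A match is a match of letters only.

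Levels were set side by side at 0 h as TPM, which is scaled to transcript length. The TPM of the copies was added to that of the gene. The summed mitochondrial genes were at 66145 to 99426 TPM and the summed nuclear genes at 27018 to 30424 TPM. Among mitochondrial genes the highest were mt-Co1 at 9215 to 15209.7, mt-Atp6 at 10165 to 14456, mt-Co2 at 10039 to 13651, mt-Atp8 at 8615 to 13567 and mt-Co3 at 6573 to 12439 TPM over the 6 libraries. Their ranges overlap, so these 5 genes, the core of complex IV and 2 membrane subunits of complex V, have no order among themselves. The complex I genes were lower, from 3827 to 6737 TPM for mt-Nd1 to 906 to 1349 TPM for mt-Nd5. The lowest was mt-Nd6, at 239.6 to 352 TPM, the sole protein gene on the other strand, which is known to carry a short or no poly(A) tail; its level in libraries made from polyadenylated RNA may not be its level in the cell. Among nuclear genes Cox7c with its copies was at 2081 to 2777 TPM, and Atp5b, the catalytic beta subunit of ATP synthase, at 1514 to 1918 TPM. The Cox7c value includes Gm12338, a copy that matches over 192 bases. That copy alone was at 602 to 1054 TPM at 0 h, but at 35.4 to 72.0 CPM. The place of Cox7c above Atp5b, and near mt-Nd2 at 2175 to 3266 TPM, therefore depends on the TPM given to this short copy. Most other nuclear subunits lay between about the level of Ndufa8, 59.2 to 115 TPM, and that of Cox4i1, 729.6 to 928 TPM.

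Summed over each genome, RNA of the respiratory chain was lower at 24 h than at 0 h in iFoxC1, iFoxG1, iFoxL2 and iFoxP3. The summed mitochondrial joint counts were 30334 and 28449.8 CPM in iFoxA1 and 32008, 42845, 36672 and 50434 CPM in iFoxC1, iFoxG1, iFoxL2 and iFoxP3 at 0 h. After 24 h they were 28365, 24916 and 35100.4 CPM in iFoxA1, 26249 and 21851 in iFoxC1, 21427 and 20643 in iFoxG1, 20998 and 25928 in iFoxL2, and 21369 and 23328 in iFoxP3. The summed nuclear joint counts were 13437 and 13306 CPM in iFoxA1 and 15495, 16156, 15054 and 18406 CPM in iFoxC1, iFoxG1, iFoxL2 and iFoxP3 at 0 h. After 24 h these were 11278, 11664 and 14157 CPM in iFoxA1, 12034 and 12122 in iFoxC1, 11793 and 11913 in iFoxG1, 11172 and 13774 in iFoxL2, and 11581 and 13129.6 in iFoxP3. In 4 lines every 24 h library was below the 0 h library for both sums. In iFoxA1 the deeper library lay above both 0 h libraries for both sums, while its 2 other libraries lay below both. Fewer cells of one kind and less RNA per cell cannot be told apart in such bulk samples. Means over libraries gave log2 changes of the mitochondrial sum of -0.41, -1.03, -0.64 and -1.17 in iFoxC1, iFoxG1, iFoxL2 and iFoxP3. For the nuclear sum they were -0.36, -0.45, -0.27 and -0.58. In iFoxA1 they were 0.0034 for the mitochondrial and -0.11 for the nuclear sum. Its deeper library alone gave 0.26 and 0.082, and its 2 libraries of usual depth -0.14 and -0.22. The 0 h level itself differed by line: the iFoxP3 library at 0 h was highest for both sums, and 4 of the 5 lines have a single library there.

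**Figure D1:**
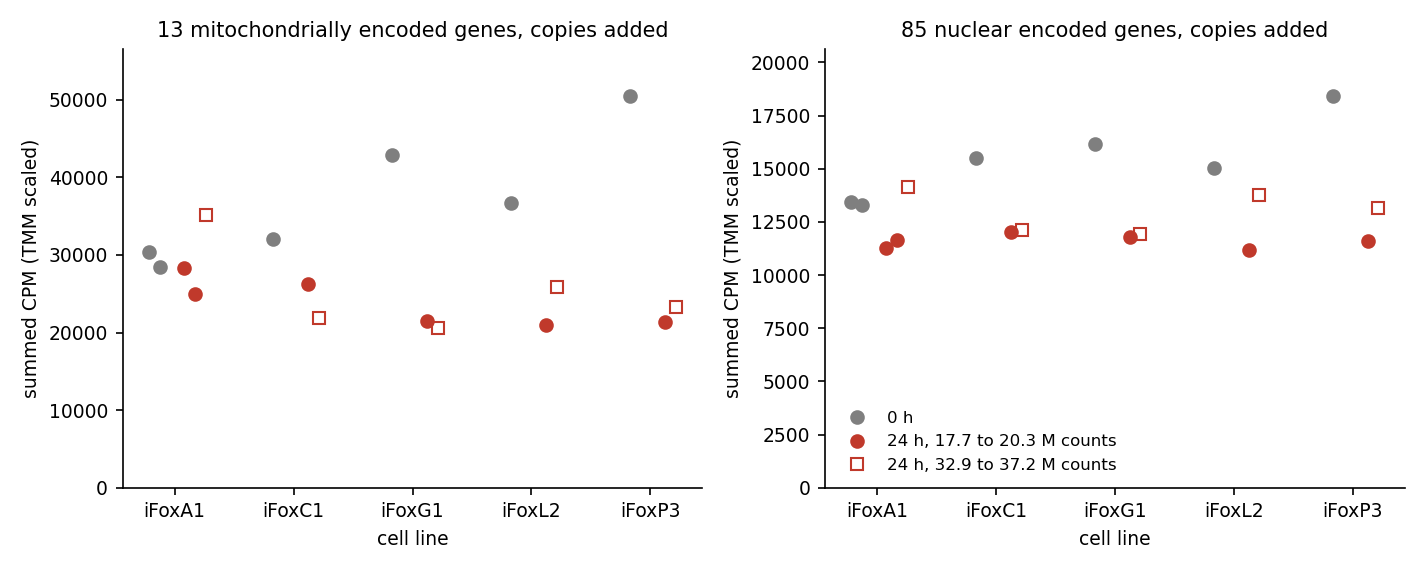
Summed joint counts of the mitochondrial (left) and nuclear (right) genes in CPM, by cell line, one symbol per library. Grey circles are 0 h, red circles 24 h and open red squares the deeper 24 h libraries; the grey circle lies above the red symbols in every line except iFoxA1, where the deeper library is highest.

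The log2 ratio of the mitochondrial to the nuclear sum, in deposited TPM, was 1.24 ± 0.19 (SD, 6 libraries) at 0 h and 1.09 ± 0.24 (SD, 11 libraries) at 24 h. These means lay closer together than 1 SD, and the sum includes mt-Atp8, whose TPM was higher and CPM lower in the deeper libraries. Without mt-Atp8 the ratio was 0.96 ± 0.20 at 0 h and 0.63 ± 0.31 at 24 h. In joint counts the ratio was 1.24 ± 0.17 at 0 h and 0.99 ± 0.19 at 24 h. In both of these the means over all lines lay further apart than either SD, and the ranges at 0 h and 24 h overlapped on all 3 scales. Without mt-Atp8 the 24 h mean was 0.38 ± 0.16 (SD) in the deeper libraries. At usual depth it was 0.83 ± 0.24 (SD), closer to the 0 h mean than 1 SD. In joint counts the lines differed. In iFoxG1, iFoxL2 and iFoxP3 every 24 h library lay below the 0 h library. In iFoxA1 the ratio was 1.17 and 1.096 at 0 h and 1.33, 1.095 and 1.31 at 24 h. In iFoxC1 it was 1.05 at 0 h and 1.13 and 0.85 at 24 h. No test set one genome against the other.

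Gene by gene, the change was tested as the mean of the 5 line changes, 24 h minus 0 h, with equal weight per line. Of 82 nuclear genes 53 fell and none rose, with a median log2 change of -0.43; of 13 mitochondrial genes 8 fell and none rose, with a median of -0.70. Of all 19819 genes tested, 16.1% fell and 21.7% rose, and their median log2 change was 0.04. On joint counts 55 nuclear and 12 mitochondrial genes fell, beside 16.2% of all genes. Without the 2 libraries low in their factor, 65 nuclear and 10 mitochondrial genes fell, beside 24.4% of all genes. Every 24 h library lay below every 0 h library of its own line, in all 5 lines, for 30 nuclear and 3 mitochondrial genes. The same held for 8.71% of all genes. No member was above in that way, against 9.69% of all genes.

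**Figure D2:**
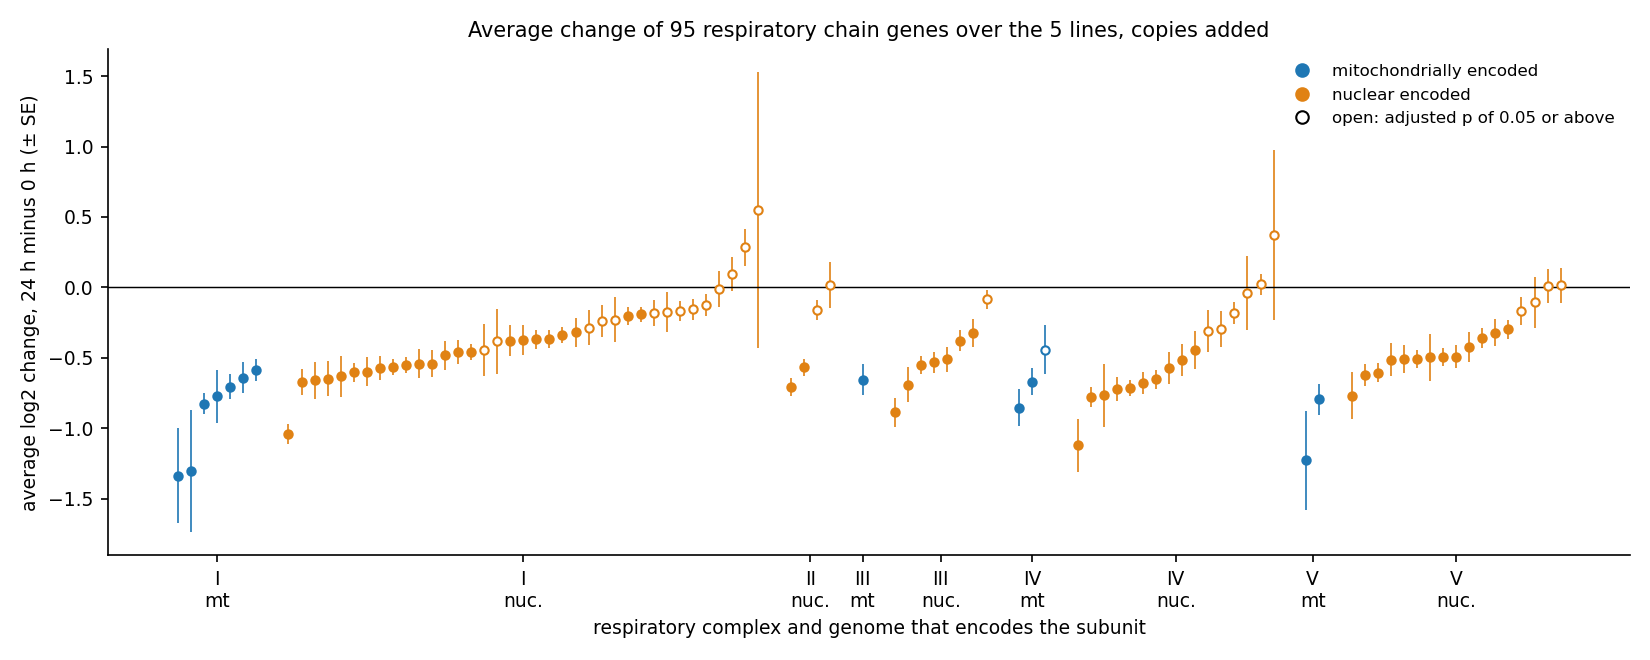
Average log2 change with its standard error for 95 genes on joint counts, grouped by complex and by genome (mt or nuc.) and sorted within a group; filled points passed an adjusted p of 0.05. Filled points all lie below 0, and every nuclear group also holds open points.

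By complex, 21 of 37 tested nuclear genes of complex I fell, 2 of 4 of complex II, 7 of 8 of complex III, 10 of 16 of complex IV and 13 of 17 of complex V. The medians of their log2 changes were -0.37, -0.36, -0.52, -0.55 and -0.49. No test compared the complexes with each other. In complex I the nuclear genes that fell most on deposited counts were Ndufv2, a core iron-sulfur subunit of the NADH-oxidising arm, and Ndufb3, an accessory subunit of the membrane arm; on joint counts Ndufb4, taken up with the copies below, fell more. At 0 h Ndufv2 was at 139 and 132 CPM in iFoxA1 and 189, 179.9, 149.8 and 221 CPM in iFoxC1, iFoxG1, iFoxL2 and iFoxP3. At 24 h Ndufv2 stood at 109, 105 and 136 CPM in iFoxA1, 102 and 105 in iFoxC1, 106 and 106 in iFoxG1, 95.2 and 124 in iFoxL2, and 94.0 and 119.6 in iFoxP3. The 0 h values of iFoxC1, iFoxG1, iFoxL2 and iFoxP3 were above all their 24 h values, and in iFoxA1 the deeper library lay between the 2 libraries at 0 h. The log2 change of Ndufv2 was -0.67 ± 0.091 (SE, edgeR adjusted p = 0.000491). For Ndufb3 it was -0.66 ± 0.13 (SE, edgeR adjusted p = 0.00358), from 59.6 to 75.8 CPM at 0 h to 28.7 to 59.9 CPM at 24 h. With the deeper libraries as a term Ndufv2 changed by -0.78 and Ndufb3 by -0.47, less than Ndufb5 (-0.74) and Ndufb2 (-0.72). Ndufs1, the largest core subunit, changed by -0.56 ± 0.057 (SE, edgeR adjusted p = 9.29e-05). The other 18 that fell, Ndufa1, Ndufa2, Ndufa3, Ndufa4, Ndufa5, Ndufa6, Ndufa9, Ndufb11, Ndufb2, Ndufb6, Ndufb8, Ndufb9, Ndufc1, Ndufc2, Ndufs5, Ndufs6, Ndufs8 and Ndufv1, had log2 changes from -0.65 to -0.20 (edgeR adjusted p at most 0.0387). Those that did not pass, Ndufa10, Ndufa11, Ndufa12, Ndufa13, Ndufa4l2 and Ndufa7 among them, ranged from -0.60 to 0.55.

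In complex II, which also works in the citric acid cycle, Sdhd, one of the 2 membrane anchors, and Sdhb, the iron-sulfur subunit, fell. At 0 h Sdhd was at 172 and 161 CPM in iFoxA1 and 182, 205, 206 and 241 CPM in iFoxC1, iFoxG1, iFoxL2 and iFoxP3. At 24 h Sdhd stood at 131, 129.8 and 120.5 CPM in iFoxA1, 132 and 122 in iFoxC1, 127 and 117 in iFoxG1, 118 and 96.7 in iFoxL2, and 120.1 and 133 in iFoxP3. All 24 h values of Sdhd were below all 0 h values. Its log2 change was -0.71 ± 0.067 (SE, edgeR adjusted p = 6.71e-05). Sdhb was at 98.9 to 136 CPM at 0 h and 65.0 to 94.97 CPM at 24 h, again with all 24 h values below all 0 h values, and a log2 change of -0.57 ± 0.061 (SE, edgeR adjusted p = 0.000139). The flavoprotein Sdha changed by -0.16 ± 0.070 (SE, edgeR adjusted p = 0.102) and the other anchor, Sdhc, by 0.02 ± 0.16 (SE, edgeR adjusted p = 0.962), and neither passed the test. Sdha did with the deeper libraries as a term, with -0.20 ± 0.066 (SE, edgeR adjusted p = 0.037).

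In complex III, Uqcr10 and Uqcrq, 2 small accessory subunits, fell most. At 0 h Uqcr10 was at 145 and 141 CPM in iFoxA1 and 170.3, 175, 163 and 218 CPM in iFoxC1, iFoxG1, iFoxL2 and iFoxP3. At 24 h Uqcr10 stood at 119.7, 123 and 85.2 CPM in iFoxA1, 102 and 102 in iFoxC1, 87.3 and 89.2 in iFoxG1, 88.5 and 64.6 in iFoxL2, and 83.6 and 104 in iFoxP3. Every 24 h value was below every 0 h value of all lines. The log2 change of Uqcr10 was -0.89 ± 0.10 (SE, edgeR adjusted p = 0.000231) and that of Uqcrq -0.69 ± 0.12 (SE, edgeR adjusted p = 0.00224). With the deeper libraries as a term Uqcr10 (-0.82) still fell most, while Uqcrb (-0.61) and Uqcrh (-0.59) fell more than Uqcrq (-0.55). The Rieske iron-sulfur protein Uqcrfs1 changed by -0.38 ± 0.076 (SE, edgeR adjusted p = 0.00414) and the core protein Uqcrc2 by -0.51 ± 0.087 (SE, edgeR adjusted p = 0.00166). Uqcrc1, the other core protein, was the complex III gene that did not pass, with -0.08 ± 0.068 (SE, edgeR adjusted p = 0.358). In 4 of the alternative settings Uqcrc1 passed, with log2 changes from -0.13 to -0.11. The 3 others, Uqcr11, Uqcrb and Uqcrh, fell with log2 changes of -0.32, -0.53 and -0.55 (edgeR adjusted p = 0.0288, 0.000619 and 0.000232).

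In complex IV the largest fall was in Cox7a1, the form of subunit 7a known from heart and muscle, taken up with the isoforms below, and then in Cox7a2, the form of most tissues. At 0 h Cox7a2 was at 159 and 162 CPM in iFoxA1 and 209, 243, 223 and 324 CPM in iFoxC1, iFoxG1, iFoxL2 and iFoxP3. At 24 h Cox7a2 stood at 124, 137 and 126 CPM in iFoxA1, 135 and 115 in iFoxC1, 144 and 126 in iFoxG1, 129 and 113 in iFoxL2, and 155 and 146 in iFoxP3. Every 24 h value lay below every 0 h value. The log2 change of Cox7a2 was -0.78 ± 0.068 (SE, edgeR adjusted p = 4.16e-05). With the deeper libraries as a term Cox7a1 (-1.38) still fell most, and Cox7a2 (-0.71) lay beside Cox7a2l (-0.72) and Cox6b1 (-0.71). Cox6c, a small nuclear subunit, changed by -0.65 ± 0.065 (SE, edgeR adjusted p = 9.04e-05), and Cox4i1, the largest nuclear subunit, by -0.18 ± 0.078 (SE, edgeR adjusted p = 0.0936); with the deeper libraries as a term Cox4i1 passed, with -0.22 ± 0.076 (SE, edgeR adjusted p = 0.0422). The other 7 that fell, Cox5a, Cox6b1, Cox7a2l, Cox7b, Cox7b2, Cox7c and Cox8a, had log2 changes from -0.77 to -0.44 (edgeR adjusted p at most 0.0302). The 6 that did not pass, Cox4i1, Cox4i2, Cox5b, Cox6a1, Cox6b2 and Cox8c, ranged from -0.31 to 0.37.

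In complex V, Atp5k (subunit e, which helps ATP synthase dimers form) and Atp5o (the OSCP subunit of the stalk) fell most. At 0 h Atp5o was at 263 and 255 CPM in iFoxA1 and 277, 328, 293 and 400.0 CPM in iFoxC1, iFoxG1, iFoxL2 and iFoxP3. At 24 h Atp5o stood at 184, 187 and 216 CPM in iFoxA1, 193 and 208 in iFoxC1, 185 and 210.3 in iFoxG1, 174 and 203 in iFoxL2, and 191 and 242 in iFoxP3. All 24 h values of Atp5o were below all 0 h values, and its change was -0.62 ± 0.079 (SE, edgeR adjusted p = 0.000329). Atp5k went from 97.5 to 147 CPM to 40.4 to 91.2 CPM, with -0.77 ± 0.17 (SE, edgeR adjusted p = 0.00633). With the deeper libraries as a term the order was another: Atp5mpl (-0.79) and Atp5o (-0.73) fell most, and Atp5k changed by -0.54. The catalytic Atp5b changed by 0.01 ± 0.12 (SE, edgeR adjusted p = 0.973) and Atp5d, the delta subunit of the rotor, by 0.01 ± 0.12 (SE, edgeR adjusted p = 0.961), and neither passed. The other 11 that fell, Atp5a1, Atp5c1, Atp5e, Atp5f1, Atp5g1, Atp5g3, Atp5h, Atp5j, Atp5j2, Atp5l and Atp5mpl, had log2 changes from -0.61 to -0.30 (edgeR adjusted p at most 0.0388). The 4 that did not pass, Atp5b, Atp5d, Atp5g2 and Atp5s, ranged from -0.17 to 2.90.

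Among mitochondrial genes of complex I, mt-Nd2 gave the clearest change. At 0 h mt-Nd2 was at 1432 and 1299 CPM in iFoxA1 and 1146, 1662, 1293 and 1849 CPM in iFoxC1, iFoxG1, iFoxL2 and iFoxP3. At 24 h mt-Nd2 stood at 1136, 960.3 and 892 CPM in iFoxA1, 972 and 804 in iFoxC1, 763 and 735 in iFoxG1, 689 and 712 in iFoxL2, and 771 and 762 in iFoxP3. Every 24 h value was below every 0 h value, and the log2 change was -0.83 ± 0.072 (SE, edgeR adjusted p = 4.29e-05). The others that fell were mt-Nd1 with -0.70 ± 0.086 (SE, edgeR adjusted p = 0.000277), mt-Nd4 with -0.64 ± 0.093 (SE, edgeR adjusted p = 0.000731), mt-Nd5 with -0.59 ± 0.077 (SE, edgeR adjusted p = 0.00039) and mt-Nd6 with -1.31 ± 0.43 (SE, edgeR adjusted p = 0.0395). These 5 encode membrane subunits, mt-Nd2, mt-Nd4 and mt-Nd5 the antiporter-like ones. The call of mt-Nd6 was lost when any of 11 single libraries was left out. mt-Nd6 was at 50.4 to 80.6 CPM at 0 h, 36.4 to 45.9 CPM in the other 24 h libraries and 9.58 to 18.5 CPM in the deeper ones. mt-Cytb, the cytochrome b of complex III, fell too, with a log2 change of -0.65 ± 0.11 (SE, edgeR adjusted p = 0.00157), from 2221 to 4907 CPM to 1238 to 2698 CPM. Its iFoxC1 libraries went the other way, from 2221 CPM to 2680.0 and 2599.6 CPM.

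The catalytic subunit of complex IV, mt-Co1, had the highest counts of all members. At 0 h mt-Co1 was at 7897 and 7507 CPM in iFoxA1 and 9614, 12205, 10101 and 14379 CPM in iFoxC1, iFoxG1, iFoxL2 and iFoxP3. At 24 h mt-Co1 stood at 7914, 7115 and 14074 CPM in iFoxA1, 7389 and 7802 in iFoxC1, 6039.6 and 7317 in iFoxG1, 6063 and 11723 in iFoxL2, and 6184 and 7859 in iFoxP3. In iFoxA1 and iFoxL2 the deeper library was the highest of its line, and these are the 2 libraries with a low level of the factor. The log2 change of mt-Co1 was -0.42 ± 0.18 (SE, edgeR adjusted p = 0.098) on deposited counts, -0.44 ± 0.17 (SE, edgeR adjusted p = 0.0721) on joint counts and -0.60 ± 0.075 (SE, edgeR adjusted p = 0.000383) without those 2 libraries. mt-Co3 fell, with -0.88 ± 0.13 (SE, edgeR adjusted p = 0.000754), from 2835 to 6133 CPM to 1685 to 3928 CPM. mt-Atp8 fell too, with -1.23 ± 0.35 (SE, edgeR adjusted p = 0.0218). Its level depends on the unit: mt-Atp8, whose transcript has 204 bases, was at 379 to 456 CPM in the 24 h libraries of usual depth and 131 to 342 CPM in the deeper ones, but at 6702 to 8366 and 12689.7 to 32163 TPM, the opposite order. With limma on log2(TPM + 1) the average change of mt-Atp8 was -0.0043.

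The deposited counts of several members moved between gene and copy from library to library. For mt-Atp6 the copy is Gm10925, at chr1:24613974-24614651, identical over the aligned bases. At 0 h mt-Atp6 was given 1876 and 1874 CPM in iFoxA1 and 867, 1131, 1132 and 1254 CPM in iFoxC1, iFoxG1, iFoxL2 and iFoxP3. At 24 h mt-Atp6 was given 2313, 1945 and 1098 CPM in iFoxA1, 805 and 935 in iFoxC1, 702 and 728 in iFoxG1, 847 and 800.2 in iFoxL2, and 683 and 833 in iFoxP3. Together with Gm10925 the joint counts of mt-Atp6 were 3658 and 3373 CPM in iFoxA1 and 3557, 4492, 4051 and 5281 CPM in iFoxC1, iFoxG1, iFoxL2 and iFoxP3 at 0 h. Joint counts at 24 h were 3127, 2566 and 3925 CPM in iFoxA1, 2697 and 1857 in iFoxC1, 2269.6 and 1819.6 in iFoxG1, 2452 and 2269 in iFoxL2, and 2206 and 2134 in iFoxP3. The iFoxA1 libraries of usual depth had the highest deposited counts and no longer stood out in joint counts. The log2 change was -0.38 ± 0.14 (SE, edgeR adjusted p = 0.061) on deposited and -0.79 ± 0.11 (SE, edgeR adjusted p = 0.000579) on joint counts. mt-Co2, the copper-bearing subunit that takes electrons from cytochrome c, behaved likewise with Gm28661: -0.23 ± 0.26 (SE, edgeR adjusted p = 0.524) became -0.67 ± 0.094 (SE, edgeR adjusted p = 0.000561). The copy Gm10222 of mt-Nd4l was at 61.5 to 159 CPM in the deeper libraries and 0 in the 12 others. The copy Gm28438 of mt-Nd3 was at 64.4 to 111 CPM in the deeper libraries and 0 to 246 CPM in the others, highest in the second iFoxA1 library at 0 h. On joint counts mt-Nd3 changed by -1.34 ± 0.34 (SE, edgeR adjusted p = 0.0121) and mt-Nd4l by -0.77 ± 0.19 (SE, edgeR adjusted p = 0.0104), against -1.55 ± 0.86 (SE, edgeR adjusted p = 0.187) and -1.01 ± 0.40 (SE, edgeR adjusted p = 0.071) on deposited counts.

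The same was seen in nuclear genes. Atp5g2, a gene for the c-ring subunit of ATP synthase, was at 10.9 to 23.5 CPM in the 12 libraries of usual depth and 238 to 371 CPM in the 5 deeper ones. Its copy Gm10175 at chr7:23946646-23947290, identical over 645 bases, was at 151 to 312 CPM and 0 CPM in the same libraries. The joint counts of Atp5g2 were 186 and 187 CPM in iFoxA1 and 265, 271, 259 and 332 CPM in iFoxC1, iFoxG1, iFoxL2 and iFoxP3 at 0 h. The 24 h joint counts were 169, 177 and 311 CPM in iFoxA1, 200.1 and 238 in iFoxC1, 226 and 266 in iFoxG1, 195 and 371 in iFoxL2, and 208 and 269 in iFoxP3. On deposited counts the log2 change was 2.90 ± 1.23 (SE, edgeR adjusted p = 0.0902) and on joint counts -0.11 ± 0.18 (SE, edgeR adjusted p = 0.683). Ndufb4, an accessory subunit of complex I, changed by -0.28 ± 0.34 (SE, edgeR adjusted p = 0.556) on deposited counts and by -1.04 ± 0.070 (SE, edgeR adjusted p = 1.03e-05) together with its copies, of which Ndufb4c at chr15:73809507-73809896 is identical over 390.0 bases. At 0 h Ndufb4 jointly was at 79.2 and 73.5 CPM in iFoxA1 and 115, 102, 93.2 and 124 CPM in iFoxC1, iFoxG1, iFoxL2 and iFoxP3. At 24 h Ndufb4 jointly stood at 57.0, 54.6 and 54.9 CPM in iFoxA1, 51.3 and 44.1 in iFoxC1, 52.2 and 42.7 in iFoxG1, 39.0 and 45.1 in iFoxL2, and 56.1 and 50.2 in iFoxP3. In joint counts every 24 h library of Ndufb4 was below every 0 h library. Ndufa12, which shares sequence with Gm15920, changed by -0.60 ± 0.25 (SE, edgeR adjusted p = 0.0844) and jointly by -0.19 ± 0.053 (SE, edgeR adjusted p = 0.02).

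**Figure D3:**
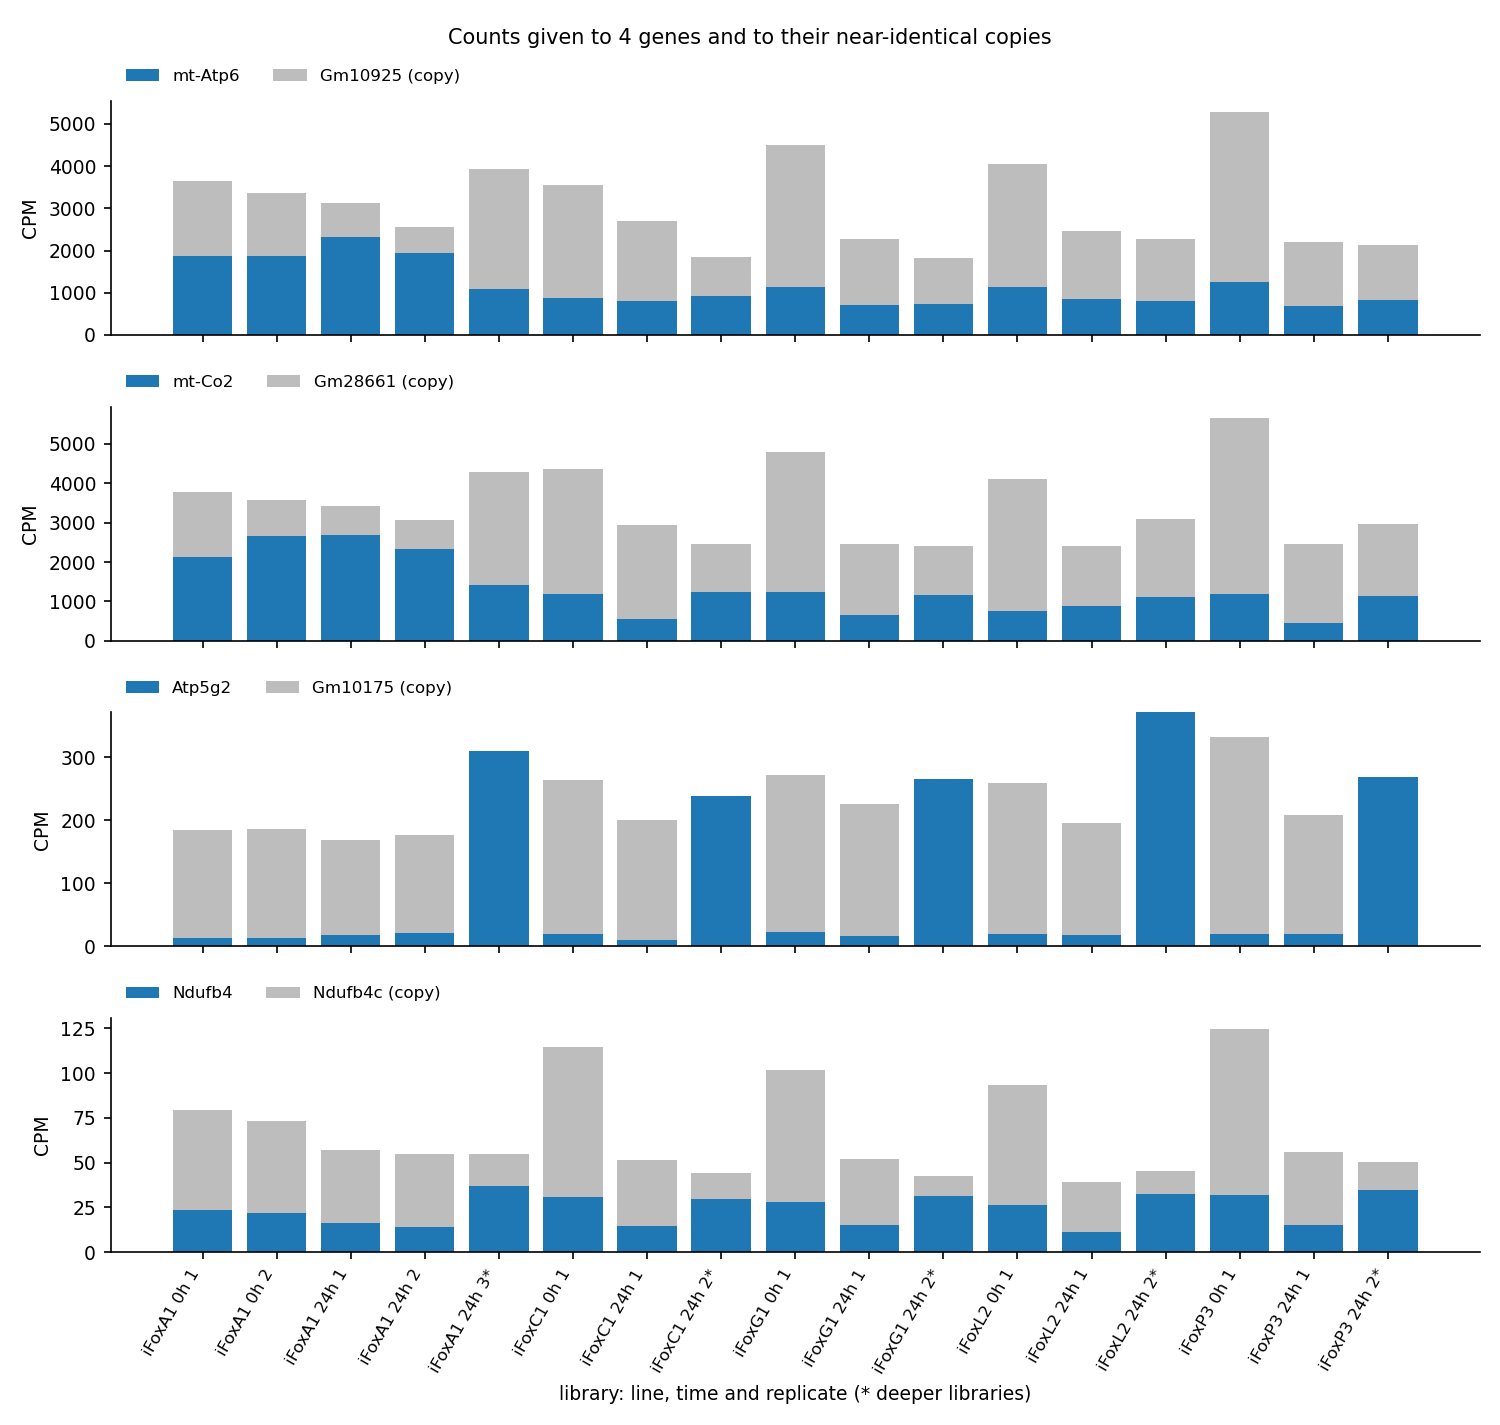
Counts in CPM given to 4 members (blue) and to a near-identical copy of each (grey, stacked on top) in the 17 libraries; an asterisk marks the deeper libraries. For Atp5g2 most counts lie with the copy in all 12 other libraries and with the gene in all 5 deeper ones, while for mt-Atp6 and mt-Co2 the blue part is largest in the iFoxA1 libraries of usual depth.

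Some subunits of complexes IV and V exist as isoforms encoded by separate genes, often with tissue preferences. Cox7a1 fell, with -1.12 ± 0.19 (SE, edgeR adjusted p = 0.00164). At 0 h Cox7a1 was at 11.3 and 11.3 CPM in iFoxA1 and 24.9, 15.2, 12.0 and 17.0 CPM in iFoxC1, iFoxG1, iFoxL2 and iFoxP3. At 24 h Cox7a1 stood at 5.50, 6.45 and 10.6 CPM in iFoxA1, 6.69 and 6.96 in iFoxC1, 6.85 and 6.51 in iFoxG1, 5.08 and 10.4 in iFoxL2, and 5.47 and 7.87 in iFoxP3. Every 24 h value was below every 0 h value; the iFoxC1 library at 0 h was the highest, and the deeper iFoxA1 and iFoxL2 libraries were the highest at 24 h. The related Cox7a2l, a factor for joining complexes III and IV, changed by -0.59 ± 0.11 (SE, edgeR adjusted p = 0.00263). Cox6b1, the form of most tissues, changed by -0.68 ± 0.076 (SE, edgeR adjusted p = 0.000182), and Cox6b2, known from testis, by 0.02 ± 0.074 (SE, edgeR adjusted p = 0.858). Cox6b2 was at 18.7 to 27.8 CPM at 0 h and 17.3 to 30.1 CPM at 24 h, and the 2 ranges overlapped. Cox7b changed by -0.71 ± 0.055 (SE, edgeR adjusted p = 2.17e-05) and Cox7b2, at 1.501 to 4.22 CPM at 0 h, by -0.77 ± 0.22 (SE, edgeR adjusted p = 0.0232). Cox7b2 did not pass with the deeper libraries as a term, with -0.59 ± 0.23 (SE, edgeR adjusted p = 0.0684), nor without either of 2 single libraries, iFoxL2 0h replicate 1 and iFoxC1 24h replicate 2. In TPM, Cox7b was at 318 to 433 in the 24 h libraries of usual depth and 1122 to 1317 in the deeper ones, while in CPM the ranges were 147 to 194 and 134 to 180.2. With limma on log2(TPM + 1) the average change of Cox7b was 0.45, opposite in sign.

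Cox4i2 and Ndufa4l2, both known as forms that hypoxia raises, had few counts in most libraries. At 0 h Ndufa4l2 was at 1.53 and 2.23 CPM in iFoxA1 and 16.6, 3.08, 2.87 and 4.12 CPM in iFoxC1, iFoxG1, iFoxL2 and iFoxP3. At 24 h Ndufa4l2 stood at 1.24, 1.13 and 43.3 CPM in iFoxA1, 0.496 and 0.885 in iFoxC1, 5.04 and 8.07 in iFoxG1, 0.813 and 72.9 in iFoxL2, and 2.61 and 3.20 in iFoxP3. The deeper iFoxA1 and iFoxL2 libraries were far above all others, and the iFoxC1 library at 0 h was next. Cox4i2 was highest in the same 3 libraries, at 5.89 CPM in the deeper iFoxL2, 4.70 CPM in the deeper iFoxA1 and 3.51 CPM in the iFoxC1 library at 0 h, against at most 1.60 CPM elsewhere. The average log2 change of Ndufa4l2 was 0.55 ± 0.98 (SE, edgeR adjusted p = 0.699), and without the 2 libraries low in their factor -1.28 ± 0.19 (SE, edgeR adjusted p = 0.000966). For Cox4i2 it was 0.37 ± 0.60 (SE, edgeR adjusted p = 0.666) and -0.43 ± 0.20 (SE, edgeR adjusted p = 0.103). The main forms Cox4i1 and Ndufa4 changed by -0.18 ± 0.078 (SE, edgeR adjusted p = 0.0936) and -0.46 ± 0.059 (SE, edgeR adjusted p = 0.000348); Ndufa4 was first assigned to complex I, is now known as a complex IV subunit and is counted with complex I here. Cox6a1 changed by -0.31 ± 0.15 (SE, edgeR adjusted p = 0.137) and Cox8a by -0.44 ± 0.14 (SE, edgeR adjusted p = 0.0302); with the deeper libraries as a term Cox6a1 passed, with -0.55 ± 0.079 (SE, edgeR adjusted p = 0.000631). The call of Cox8a was lost when any of 6 single libraries was left out, while Cox8c stayed at or below 0.695 CPM. Of the 3 genes for the same c-ring protein, Atp5g1 changed by -0.42 ± 0.11 (SE, edgeR adjusted p = 0.013) and Atp5g3 by -0.49 ± 0.081 (SE, edgeR adjusted p = 0.00136), both past the threshold, and joint Atp5g2 did not pass.

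**Figure D4:**
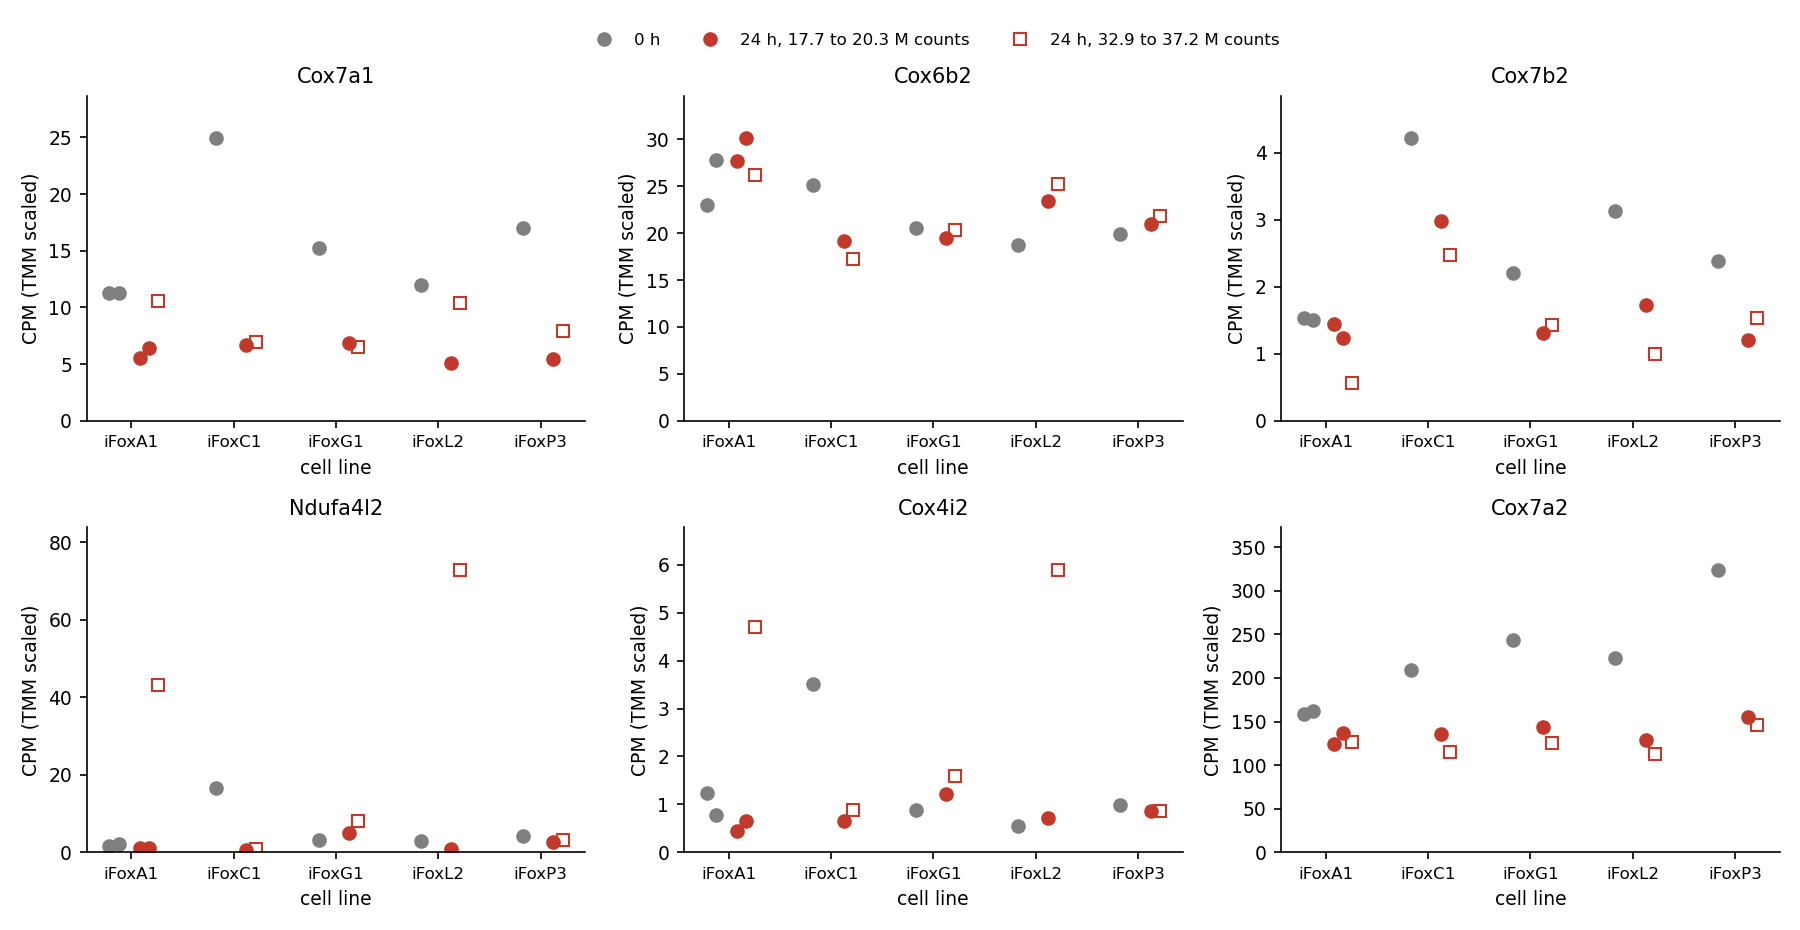
Deposited counts in CPM of 6 isoform genes by cell line, one symbol per library, in grey at 0 h and in red at 24 h with open squares for the deeper libraries. Cox7a2 is lower at 24 h in every line, Cox6b2 is not, and the highest values of Ndufa4l2 and Cox4i2 are the open squares of iFoxL2 and iFoxA1.

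Within single lines fewer genes passed than in the average. In iFoxP3 32 of 95 members fell (2.79% of all genes fell), in iFoxG1 18 (2.29%), in iFoxL2 11 (1.94%), in iFoxC1 10 (3.47%) and in iFoxA1 none (4.14%). None rose in any line, where 6.62%, 6.23%, 3.34%, 2.31% and 3.25% of all genes rose in iFoxA1, iFoxC1, iFoxG1, iFoxL2 and iFoxP3. In iFoxA1 11 members had an unadjusted p under 0.05, a share not counted over all genes. By DESeq2 7 fell there (5.8% of all genes) and by limma on log2(TPM + 1) 0, and without the 2 low-factor libraries 22 fell (12.7% of all genes). In iFoxL2 28 then fell (9.71%), with 1 library left at each time, so that its spread was assumed to be that of the other groups. Single libraries decided some of these counts: without its own second 24 h library none fell in iFoxC1, nor in iFoxG1 without its own, and without its own first 24 h library 6 fell in iFoxP3. The median log2 change of the 13 mitochondrial genes was -0.21, -0.34, -1.15, -0.95 and -1.24 in iFoxA1, iFoxC1, iFoxG1, iFoxL2 and iFoxP3. That of the 82 nuclear genes was -0.16, -0.46, -0.56, -0.42 and -0.71. Mitochondrial genes that fell numbered 6 in iFoxP3, 4 in iFoxG1, 4 in iFoxL2 and none in iFoxC1 and iFoxA1; mt-Nd1, for example, changed by -1.24 ± 0.20 (SE, edgeR adjusted p = 0.0109) in iFoxP3 and by 0.04 ± 0.21 (SE, edgeR adjusted p = 0.944) in iFoxC1. The test of the difference among the 5 lines did not pass for mt-Nd1 (edgeR adjusted p = 0.109).

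**Figure D5:**
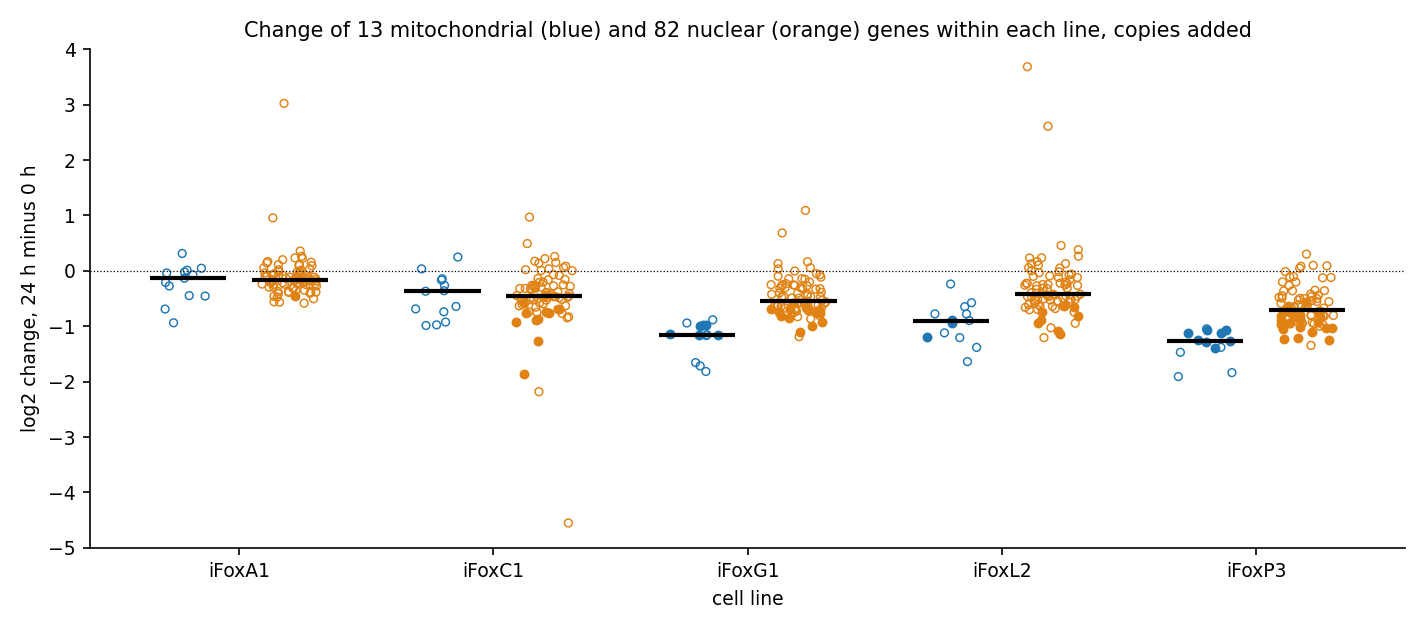
Log2 change within each line of the 13 mitochondrial (blue) and 82 nuclear (orange) genes on joint counts; filled points passed an adjusted p of 0.05 and black bars are medians. Filled points lie below 0 in each line, and the medians of both groups are nearest to 0 in iFoxA1 and lowest in iFoxP3.

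Whether the 5 changes differed was tested itself. No member passed (edgeR F test over 4 contrasts), beside 0.984% of all genes. An unadjusted p under 0.05 was found for 17 members, and the share of all genes with such a p was not counted. DESeq2 called 16 members (10.1% of all genes). With the deeper libraries as a term in the model 7 passed, beside 4.81% of all genes: mt-Nd1, mt-Nd4, mt-Nd4l, mt-Nd5, Ndufa9, Cox7b and Cox7c. Without the 2 low-factor libraries 13 passed, a smaller share than the 20.9% of all genes; Ndufa4l2, Cox7b and Ndufa9 had the smallest adjusted p-values (edgeR, 0.00547, 0.00802 and 0.00806). Lines at 24 h differed for 4 members, Ndufa9, mt-Atp6, mt-Nd5 and Cox6b2 (13.1% of all genes), and lines at 0 h for Ndufa9 alone (0.494% of all genes). On joint counts mt-Atp6 no longer passed at 24 h (edgeR adjusted p = 0.172). These genes were singled out by their tests. Ndufa9 is an accessory subunit of complex I. At 0 h Ndufa9 was at 131 and 133 CPM in iFoxA1 and 281, 164, 155 and 207 CPM in iFoxC1, iFoxG1, iFoxL2 and iFoxP3. At 24 h Ndufa9 stood at 124, 129.6 and 138 CPM in iFoxA1, 213 and 189.8 in iFoxC1, 102 and 98.5 in iFoxG1, 104 and 111 in iFoxL2, and 104 and 100.2 in iFoxP3. iFoxC1 was highest at both times, and its 24 h libraries were above the 0 h libraries of iFoxA1, iFoxG1 and iFoxL2. mt-Nd5 at 24 h was at 680.2 to 1303 CPM, with iFoxA1 highest at 1062 to 1303 CPM. Cox6b2 at 24 h was lowest in iFoxC1, at 17.3 to 19.1 CPM, and highest in iFoxA1, at 26.2 to 30.1 CPM.

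The deeper libraries were set against the other 24 h libraries with line in the model. Of the 95 members 16 were higher in the deeper ones (9.46% of all genes) and 10 lower (11.4%). The smallest adjusted p-values belonged to Atp5g2, mt-Nd4l, Ndufa12 and mt-Nd6, with log2 differences of 4.09 ± 0.12 (SE, edgeR adjusted p = 9.1e-07), -1.52 ± 0.084 (SE, edgeR adjusted p = 1.64e-05), -0.93 ± 0.065 (SE, edgeR adjusted p = 6e-05) and -1.66 ± 0.13 (SE, edgeR adjusted p = 0.000103). On joint counts Ndufa12 was at -0.04 ± 0.065 (SE, edgeR adjusted p = 0.66) and Atp5g2 at 0.53 ± 0.11 (SE, edgeR adjusted p = 0.0153). The small RNA gene Mir6236 was at 31756 to 57882 TPM in the deeper libraries and 973 to 2544 TPM in the other 24 h libraries, and the mitochondrial 16S rRNA mt-Rnr2 at 95.8 to 144 and 606 to 1014 TPM. The part of these in the changes was not tested. With the deeper libraries as a term, 66 nuclear and 10 mitochondrial genes fell on average (18.8% of all genes), and 67 and 13 on joint counts (18.8%).

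Other genes of the organelle were taken from lists, read against the same background of 16.1% that fell and 21.7% that rose. Of the mitochondrial ribosomal proteins, which translate the 13 mitochondrial messages, 4 rose and 35 fell of 78 tested, Mrpl35 with a log2 change of -0.71 (edgeR adjusted p = 4.95e-05). Of the factors that assemble the complexes, 2 rose and 24 fell of 48, Ndufaf5, a complex I assembly factor, with -1.26 (edgeR adjusted p = 5.55e-05). Among genes that maintain and transcribe mitochondrial DNA, 2 rose and 7 fell of 17; Tfam, which packages and transcribes it, changed by -0.39 (edgeR adjusted p = 0.000766). Of the genes for mitochondrial RNA processing, 2 rose and 6 fell of 19: Slirp, a stabiliser of mitochondrial messages, changed by -0.61 (edgeR adjusted p = 0.000231) and Elac2, the tRNA 3′ processing enzyme, by 0.41 (edgeR adjusted p = 0.00203). Among ubiquinone, cytochrome c and other electron carrier genes 2 rose and 7 fell of 15, among pyruvate dehydrogenase and citric acid cycle genes 1 rose and 6 fell of 17, and among import, porin and chaperone genes 1 rose and 8 fell of 18. Sucla2, a subunit of succinyl-CoA ligase, changed by -0.89 (edgeR adjusted p = 2.04e-05). Of 12 regulators known to act on nuclear respiratory genes, 4 fell and none rose: Esrra by -0.61 (edgeR adjusted p = 0.00108), its coactivator Ppargc1b by -1.26 (edgeR adjusted p = 0.00174), the ETS factor Gabpa by -0.50 (edgeR adjusted p = 0.0056) and Zbtb11 by -0.38 (edgeR adjusted p = 0.00771). The mitochondrial 12S rRNA mt-Rnr1 fell, with -0.77 (edgeR adjusted p = 0.000334), and mt-Rnr2 changed by -1.46 (edgeR adjusted p = 0.0671). None of 8 genes for uncoupling or inhibition of the chain passed (edgeR), with 1 at an unadjusted p under 0.05, 0 called by DESeq2 and 0 by limma on log2(TPM + 1); Ucp2 changed by 0.42 (edgeR adjusted p = 0.26) and Pdk1, which shuts pyruvate out of the cycle, by 0.43 (edgeR adjusted p = 0.299).

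The summed markers of other cells lay below the ES cell sum at both times, though some single markers were expressed. The lists differ in their genes, and Dppa5a alone, at 1682 to 3987 TPM, was above the sum of every other list. The summed fibroblast markers, 9 genes, were at 3.09 to 9.17 TPM at 0 h and 5.34 to 19.1 TPM at 24 h, and 3 rose and none fell of 8 tested. Of the heart and muscle markers 3 rose and 1 fell of 7, of the germ cell markers 1 rose and 1 fell of 3 and of the primitive endoderm markers 2 rose and none fell of 6. The 8 heart and muscle markers summed to 16.0 to 20.3 and 9.67 to 20.6 TPM, and the 6 germ cell markers to 33.3 to 90.4 and 30.2 to 66.9 TPM, with Prm1 at 0 in every library. The 6 primitive endoderm markers summed to 1.67 to 42.0 TPM at 0 h and 2.59 to 63.4 TPM at 24 h. The part of these cells in the changes was not tested.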

How the data were processed

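PolyA RNA of 17 samples was sequenced with a strand-specific kit. The authors deposited estimated counts and TPM per transcript, made with Salmon 1.4.0 and with mm10 as the genome, per the submitters' processing notes, which also name DESeq2 1.30.1. Transcripts were summed per gene with the GENCODE M21 annotation; 46 of 137271 transcripts were not matched, at most 0.0133% of a library's counts. Estimated counts were rounded and tested with edgeR 4.0.16 in R 4.3.3: filterByExpr, TMM scaling, a quasi-likelihood fit with 1 mean for each of 10 groups of line and time (7 residual degrees of freedom), and Benjamini-Hochberg adjustment over all 19819 genes at 0.05. The average change weights the 5 lines equally; F tests compared lines and changes. The SE given with an edgeR log2 change is the size of the change divided by the square root of its quasi-likelihood F statistic. Levels were compared between genes in TPM at 0 h. TPM at 24 h (marker sums, the ratio of the genomes) carries a shift: in the deeper libraries the TPM of short transcripts moved against their CPM.

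Copies were found with blastn 2.17.0 (at least 95% identity, 100 bases and 50% of the shorter transcript). DESeq2 1.42.0, limma 3.58.1 on log2(TPM + 1), upper-quartile factors, no filter, the depth set, joint counts and single libraries left out were tried as alternatives; joint counts and the omission of the 2 low-factor libraries were added after seeing the data. Scripts were tested on simulated data. Python 3.11.15 was used for tables and figures.

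The genes and lists were chosen with earlier results of these data known. Described with values were the 13 mitochondrial genes, per complex the 2 nuclear genes that fell most with one sign in all lines at 5 CPM or more, the isoform families, the 4 genes with the smallest p by library set, and up to 4 per other list by adjusted p. Ndufs1, Ndufa9, Ndufb4, Sdha, Sdhc, Uqcrc1, Uqcrc2, Uqcrfs1, Cox6c, Atp5b and Atp5d were added after their values were seen. The values of 1 gene are not reported here.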

Additional observations from a re-analysis of the deposited data

How the results depend on the processing

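On average 27 nuclear and 4 mitochondrial genes fell with limma on log2(TPM + 1), in place of 53 and 8. Of all genes 1443 of 17394 then fell, in place of 3199 of 19819. All 13 mitochondrial genes fell in the libraries of usual depth alone, and on joint counts with the deeper set as a term, in the libraries of usual depth, or without the 2 low-factor libraries. Of all genes 6080 of 19392 fell at usual depth. On joint counts 3724 of 19798, 6082 of 19373 and 4907 of 19688 fell in the settings named, in that order. Every other alternative gave 43 to 76 nuclear genes that fell. The share over all genes moved too: 3437 of 22740 fell with DESeq2 and 3291 of 19819 with upper-quartile factors. Without a filter 2519 of 37169 fell, and with the replicate block 3547 of 19819. With DESeq2 7, 25, 33, 22 and 45 members fell in iFoxA1, iFoxC1, iFoxG1, iFoxL2 and iFoxP3, and 16, 12 and 16 differed in the change, at 24 h and at 0 h (all genes: 5.8, 6.9, 5.51, 4.69 and 7.32%, and 10.1, 22 and 8.03%). Upper-quartile factors gave counts of 3, 16, 19, 12 and 34 falling members in iFoxA1, iFoxC1, iFoxG1, iFoxL2 and iFoxP3, and 0, 3 and 1 differed in the change, at 24 h and at 0 h (all genes: 4.67, 4.23, 2.29, 1.93 and 2.87%, and 1.21, 13.6 and 0.459%). Without a filter on low counts 0, 2, 5, 2 and 10 members fell in iFoxA1, iFoxC1, iFoxG1, iFoxL2 and iFoxP3, and 0, 2 and 0 differed in the change, at 24 h and at 0 h (all genes: 1.5, 1.01, 0.678, 0.527 and 0.589%, and 0.5, 5.58 and 0.215%). By limma 0, 3, 0, 0 and 0 members fell in iFoxA1, iFoxC1, iFoxG1, iFoxL2 and iFoxP3, and 0, 1 and 0 differed in the change, at 24 h and at 0 h (all genes: 3, 1.57, 0.874, 0.742 and 0.609%, and 0.287, 4.35 and 0.253%). With the deeper set as a term 9, 34, 45, 34 and 60 members fell in iFoxA1, iFoxC1, iFoxG1, iFoxL2 and iFoxP3, and 7, 15 and 8 differed in the change, at 24 h and at 0 h (all genes: 8.33, 7.9, 5.88, 4.89 and 7.52%, and 4.81, 24.6 and 3.52%). In the libraries of usual depth, where the spread came from the iFoxA1 pairs alone, 57, 73, 80, 76 and 85 members fell in iFoxA1, iFoxC1, iFoxG1, iFoxL2 and iFoxP3, and 80, 65 and 88 differed in the change, at 24 h and at 0 h (all genes: 23.6, 22.5, 21.1, 21.6 and 22.5%, and 50.9, 58.5 and 54.5%). Without the low-factor libraries 22, 42, 48, 28 and 59 members fell in iFoxA1, iFoxC1, iFoxG1, iFoxL2 and iFoxP3, and 13, 17 and 28 differed in the change, at 24 h and at 0 h (all genes: 12.7, 14.7, 11.5, 9.71 and 12.4%, and 20.9, 37.1 and 19.4%). On joint counts 1, 10, 21, 11 and 35 members fell in iFoxA1, iFoxC1, iFoxG1, iFoxL2 and iFoxP3, and 0, 3 and 1 differed in the change, at 24 h and at 0 h (all genes: 4.16, 3.48, 2.32, 1.93 and 2.83%, and 0.985, 13.1 and 0.5%). For joint counts with the set as a term 9, 36, 47, 34 and 63 members fell in iFoxA1, iFoxC1, iFoxG1, iFoxL2 and iFoxP3, and 7, 13 and 7 differed in the change, at 24 h and at 0 h (all genes: 8.34, 7.92, 5.91, 4.9 and 7.53%, and 4.86, 24.7 and 3.56%). For joint counts at usual depth 60, 74, 81, 80 and 86 members fell in iFoxA1, iFoxC1, iFoxG1, iFoxL2 and iFoxP3, and 83, 68 and 89 differed in the change, at 24 h and at 0 h (all genes: 23.7, 22.7, 21.2, 21.8 and 22.6%, and 51.3, 58.8 and 54.7%). For joint counts without the low-factor libraries 18, 48, 55, 37 and 68 members fell in iFoxA1, iFoxC1, iFoxG1, iFoxL2 and iFoxP3, and 17, 17 and 35 differed in the change, at 24 h and at 0 h (all genes: 12.1, 15.4, 11.7, 9.85 and 13.5%, and 22, 37.6 and 20.5%). With the replicate block 6, 23, 30, 21 and 49 members fell in iFoxA1, iFoxC1, iFoxG1, iFoxL2 and iFoxP3, and 1, 15 and 1 differed in the change, at 24 h and at 0 h (all genes: 6.41, 6.56, 4.48, 3.76 and 5.72%, and 3.11, 21.4 and 1.59%). Same-numbered iFoxA1 libraries at 0 h and 24 h correlated with r = 0.077 and -0.022, as deviations from their group means. This cannot decide whether the numbers pair libraries, because the 24 h mean of iFoxA1 includes its deeper library. At 24 h replicate 2 coincides with depth in 4 lines. Members called between the deeper and other 24 h libraries numbered 26, or 52 with limma, 49 without the low-factor libraries and 47 on joint counts without them. Over all genes these tests called 3772 of 18052, 7312 of 17394, 6868 of 18967 and 6863 of 18947, in the same order.

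Leaving out each library in turn gave 43 to 59 nuclear and 6 to 10 mitochondrial genes that fell on average, and 46 to 61 and 10 to 13 on joint counts. Within lines it gave 0 to 5 in iFoxA1, 0 to 24 in iFoxC1, 0 to 29 in iFoxG1, 2 to 17 in iFoxL2 and 6 to 42 in iFoxP3. The lowest counts of iFoxC1, iFoxG1 and iFoxP3 came without their own second, second and first 24 h library, and that of iFoxL2 without either 0 h library of iFoxA1. The highest count of iFoxA1 came without either 24 h library of iFoxL2, and those of iFoxC1 and iFoxL2 without the third 24 h library of iFoxA1. Differences in the change, at 24 h and at 0 h numbered 0 to 3, 1 to 11 and 0 to 2, and differences by library set 19 to 26. The difference of the mean log2 ratio of mitochondrial to nuclear TPM, -0.15, ranged from -0.21 to -0.11 in these runs and was -0.34 without mt-Atp8.

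Of single genes, Atp5g2 changed sign to -0.20 in the libraries of usual depth, and on joint counts to -0.38 with the set as a term, -0.37 at usual depth and -0.29 without the low-factor libraries. Ndufa4l2 gave -1.49 at usual depth (joint counts -1.50) and -1.28 without the low-factor libraries (joint counts -1.29). At usual depth Sdhc gave -0.23 (joint -0.23), Atp5b -0.13 (joint -0.14) and Atp5d -0.16 (joint -0.16), and Cox7b gave 0.45 with limma on TPM. Calls of single genes moved too: 12 named genes gained and 14 lost the call in at least 1 alternative, Cox6a1 gaining it in 9, Sdha in 10 and Cox4i1 in 10, and Cox8a losing it in 7 and Cox7b2 in 6. The cause of the moved counts was not tested.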
